A study of Mus musculus with 4 samples.

Results

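The genes of oxidative phosphorylation subunits, in the nucleus and in mitochondrial DNA, were described in liver of wild-type (WT) and Fto knockout (KO) mice. Fto encodes an RNA demethylase. Members were the protein-coding genes whose GENCODE M21 symbol begins as the subunits of complexes I to V do (Nduf followed by a subunit letter and number, Sdha to Sdhd, Uqcr, Cyc1, Cox4 to Cox8, Atp5) or as the mitochondrially encoded subunits do (mt-Nd, mt-Co, mt-Cytb, mt-Atp). Of the 37315 gene identifiers in the files, 98 were members, 85 of them nuclear and 13 mitochondrial. All 4 libraries came from liver of C57BL/6 mice aged 23 weeks, with 2 libraries of the WT genotype and 2 of the Fto KO genotype, and polyadenylated RNA was sequenced. The labels name neither the Fto allele nor the way it was removed, and they do not say whether the 2 libraries of a genotype are separate animals. A p-value here therefore reflects only how far these libraries differ within a genotype, which may be technical. No treatment is named for either genotype.

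Oxidative phosphorylation passes electrons from NADH (complex I) and succinate (complex II) through ubiquinone to complex III, by cytochrome c to complex IV and on to oxygen. Complexes I, III and IV pump protons across the inner mitochondrial membrane, and complex V, the ATP synthase, makes ATP as the protons flow back. Most subunits are encoded in the nucleus and imported, while a small set is transcribed inside the mitochondrion from mitochondrial DNA, so that every complex but complex II is built from the products of both genomes. Hepatocytes hold many mitochondria, whose ATP pays for glucose, urea and lipid synthesis.

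The libraries held between 39549592 and 44689114 counts. WT replicates 1 and 2 held 1749 and 1292 Fto reads, and KO replicates 1 and 2 held 607 and 486, so Fto was lower in both KO libraries (log2 fold change -1.57, SE 0.195, edgeR quasi-likelihood adjusted p = 0.0109). Hepatocyte markers summed to between 88395 and 91005 counts-per-million (CPM) in WT and between 100207 and 102580 CPM in KO, as the liver label implies. Of these 10 markers 8 overlapped between genotypes and 2 were higher in both KO libraries (20%, against 21.6% of all tested genes). Their median log2 fold change was 0.046, 4 were below 0 and 0 were called. All 12 Kupffer cell markers, genes of the liver's resident macrophages, had reads and were tested. In all 12 both KO libraries lay above both WT libraries, against 21.6% of all tested genes. Of these 12 markers 2 were called, where 1.91% of all tested genes were. Their sum was 168 and 239 CPM in WT and 370 and 376 CPM in KO over the 12. All 8 erythroid markers had reads, with a sum of 281 and 298 CPM in WT and 193 and 202 CPM in KO. All 9 stellate markers had a log2 fold change below 0 (median -0.46, 0 called). Both KO libraries lay below both WT libraries in 5 of the 9, against 20.4% of all tested genes. The 9 summed to 177 and 232 CPM in WT, then 177 and 172 CPM in KO. The 9 adipocyte markers summed to 57.1 and 106 CPM in WT, then 28.2 and 43.3 CPM in KO. Cidec held the most reads of these markers in the WT libraries, with 1153 and 2220. Of the 8 tested adipocyte markers 3 were lower in both KO libraries, among them Pparg (called) and Cidec. Adrb3 went the other way (log2 fold change 0.89, SE 0.358). The other 4 overlapped between genotypes, among them the fat cell gene Adipoq (log2 fold change -0.077, SE 1.69). Of the brown fat and muscle markers Cox6a2 had no read and Ucp1, which defines brown fat, had 1 read in all, while Cidea, which liver can also express, was at 1303 and 1625 reads in the WT libraries and 15 and 32 in those of KO. The part of these other cell types in the results on subunit genes was not tested, and in bulk liver fewer cells of a type and less RNA per cell cannot be told apart.

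Promoters of nuclear members were read from RefSeq tables on GRCm38.p6, from 250 bases before to 50 bases after the gene start, and are printed because many subunit genes are known to be driven by the factors NRF1, GABPA (an ETS factor) and YY1. Promoters were found for 68 nuclear members, 73 windows in all. On either strand, GCGCATGCG (NRF1) was in 8 of them (11.0%, against 1.75% of all 32851 promoters in the table), CCGGAAG (ETS) in 16 (21.9%, against 8.86%) and AAGATGGCG (YY1) in 7 (9.59%, against 1.40%). No window held overlapping matches of different motifs, and 26 windows (35.6%, against 11.4%) held at least 1 of them. A match is a stretch of letters and not a measured binding site. The 3 members shown are those described with their values below whose windows held both an NRF1 and an ETS match, with the matches in capitals.
Atp5k promoter, chr5:108434350-108434649, - strand: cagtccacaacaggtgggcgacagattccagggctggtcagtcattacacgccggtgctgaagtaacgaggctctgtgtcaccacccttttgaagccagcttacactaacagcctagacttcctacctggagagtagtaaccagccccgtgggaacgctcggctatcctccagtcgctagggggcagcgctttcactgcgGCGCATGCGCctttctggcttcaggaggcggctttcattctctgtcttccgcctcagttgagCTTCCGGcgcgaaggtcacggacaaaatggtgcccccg
Cox6a1 promoter, chr5:115348909-115349208, - strand: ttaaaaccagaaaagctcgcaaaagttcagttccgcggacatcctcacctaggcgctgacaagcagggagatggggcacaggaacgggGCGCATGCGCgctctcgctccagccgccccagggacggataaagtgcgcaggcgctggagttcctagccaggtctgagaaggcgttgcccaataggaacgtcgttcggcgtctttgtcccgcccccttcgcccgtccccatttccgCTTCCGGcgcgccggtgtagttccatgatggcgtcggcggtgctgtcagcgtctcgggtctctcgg
Uqcr11 promoter, chr10:80406772-80407071, - strand: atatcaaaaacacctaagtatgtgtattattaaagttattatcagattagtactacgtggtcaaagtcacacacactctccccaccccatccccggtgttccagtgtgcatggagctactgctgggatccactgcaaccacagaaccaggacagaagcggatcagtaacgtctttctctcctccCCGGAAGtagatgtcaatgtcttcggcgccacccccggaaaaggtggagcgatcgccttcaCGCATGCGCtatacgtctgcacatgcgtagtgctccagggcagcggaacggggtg

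Mitochondrial genes lie close together, and some overlap. Shown are the 2 subunit genes that overlap the next gene on the same strand by more than the 1 base that mt-Atp6 shares with mt-Co3, since a read in the shared stretch, in capitals, belongs to both genes. Sequences and positions are from GENCODE M21 on mm10, and mt-Atp8 shares 43 bases with mt-Atp6 and mt-Nd4l shares 7 with mt-Nd4.
mt-Atp8, chrM:7766-7969, + strand: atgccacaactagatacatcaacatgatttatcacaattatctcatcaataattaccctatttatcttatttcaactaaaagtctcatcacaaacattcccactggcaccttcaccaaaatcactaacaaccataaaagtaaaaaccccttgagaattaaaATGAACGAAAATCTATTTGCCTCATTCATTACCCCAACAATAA
mt-Nd4l, chrM:9877-10173, + strand: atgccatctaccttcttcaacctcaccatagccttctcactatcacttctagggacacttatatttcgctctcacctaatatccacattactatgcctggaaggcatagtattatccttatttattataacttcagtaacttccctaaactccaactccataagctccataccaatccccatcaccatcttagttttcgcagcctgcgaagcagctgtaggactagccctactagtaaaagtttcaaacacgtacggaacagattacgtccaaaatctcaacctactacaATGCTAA
On the opposite strands mt-Nd5 and mt-Nd6 share 14 bases, and the library kit does not mark the strand.

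Subunit genes took a large part of the liver's messenger RNA. Nuclear members held 1.23% and 1.42% of all counts in WT replicates 1 and 2, against 1.18% and 1.22% in KO replicates 1 and 2. Mitochondrial members held 6.61% and 7.28% in WT, and 5.25% and 7.19% in KO. Both KO libraries were below both WT libraries for the nuclear share, though only by a small margin for KO replicate 2, whereas for the mitochondrial share KO replicate 2 lay between the WT libraries and KO replicate 1 below them. The nuclear share was 1.32 ± 0.140% in WT and 1.20 ± 0.0247% in KO (SD, n = 2 each; exact two-sided permutation p = 0.333, the smallest that 2 against 2 libraries allow). The mitochondrial share was 6.95 ± 0.473% in WT and 6.22 ± 1.38% in KO (SD, n = 2 each; exact two-sided permutation p = 0.667). Wilson score intervals (95%) of the shares spanned at most 0.0162 percentage points. They cover counting error only and are far narrower than the spread between libraries, but those of WT replicate 1 (1.222 to 1.229%) and KO replicate 2 (1.216 to 1.223%) overlapped for the nuclear share. Among protein-coding counts without Alb, the Mup family and mitochondrial genes the groups overlapped, with nuclear members at 1.44% and 1.69% in WT and 1.39% and 1.48% in KO (exact permutation p = 0.667). Set against that total, mitochondrial members were at 7.75% and 8.66% in WT and 6.15% and 8.72% in KO.

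**Figure D1:**
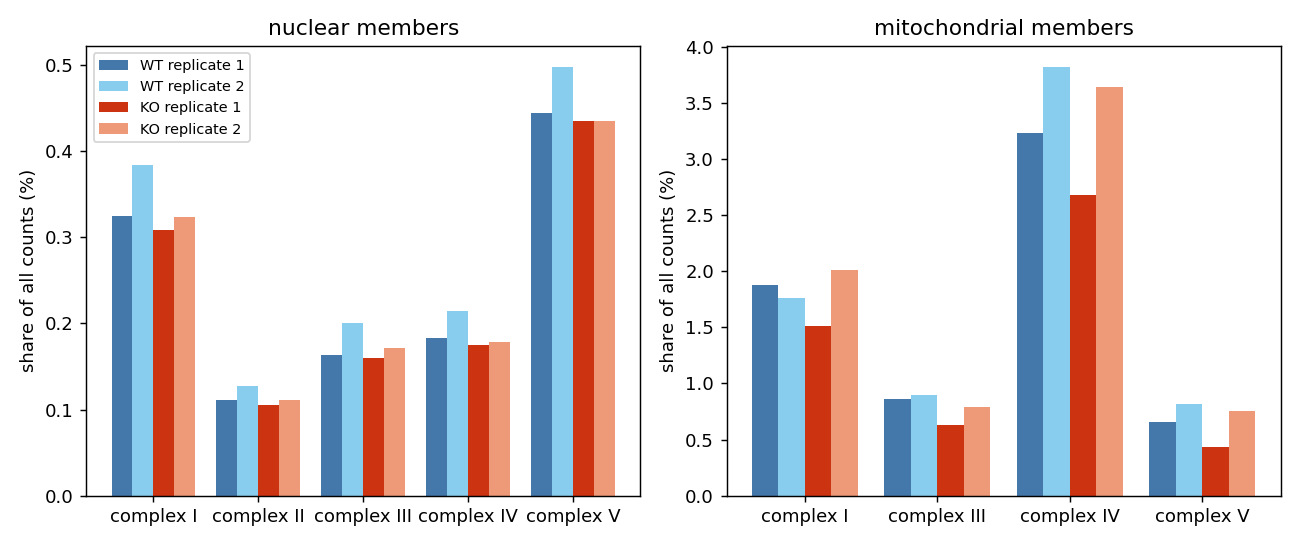
Share of all counts (%, y axis from 0) held by the members of each complex (x axis), for nuclear genes on the left and mitochondrial genes on the right, on different scales. Each bar is 1 library. WT replicate 2 has the highest nuclear bar in each of the 5 complexes, and KO replicate 1 the lowest mitochondrial bar in each of the 4 complexes.

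No subunit gene passed the test between genotypes. Of the 98 members, 92 passed the filter on low counts and were tested, and 0 were called in either direction by edgeR's quasi-likelihood test at an adjusted p under 0.05, where 1.91% of all 13836 tested genes were called. DESeq2 and limma-voom also called 0. At an unadjusted p under 0.05 edgeR gave 1 member, Ndufv3, against 13% of all tested genes.

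The small differences nevertheless pointed mostly one way. Of the 92 tested members, 88 had a log2 fold change below 0, against 49.2% of all tested genes. The 4 above 0 were mt-Nd1 (0.12), mt-Nd2 (0.087), Atp5g1 (0.085) and Cox7a2l (0.0095). The median log2 fold change was -0.19 for 79 nuclear members, a KO level 0.879 times that of WT, and -0.20 for 13 mitochondrial members, against 0.0058 for all tested genes. Among 76 nuclear members with a WT mean of at least 10 CPM the log2 fold changes ran from -0.51 to 0.085, with standard errors between 0.165 and 0.270 (median 0.201), and for 48 of them the difference was smaller than its standard error. Both KO libraries lay below both WT libraries for 21 of the 92 members (22.8%), close to the 20.4% of all tested genes, and above both for 0 of them, against 21.6%. The direction of the nuclear median rested on WT replicate 2: without that library it was 0.019 and 40 of the 92 members were below 0, and without WT replicate 1 it was -0.37 and 89 were. The mitochondrial median was 0.097 without KO replicate 1, -0.022 without WT replicate 2 and -0.46 without KO replicate 2.

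The nuclear and the mitochondrial genes differed in which libraries carried the difference. Between the libraries numbered 1, KO was below WT by a median log2 ratio of only -0.081 over the nuclear members (57 of 79 below 0) but of -0.41 over the mitochondrial members (13 of 13). Between the libraries numbered 2 it was the reverse, with -0.27 over the nuclear members (78 of 79 below 0) and 0.053 over the mitochondrial members (6 of 13). The labels do not pair the libraries by number, and with 1 library on each side neither ratio has a replicate check. Mitochondrial counts were 5.40 and 5.12 times the nuclear counts in WT replicates 1 and 2, against 4.43 and 5.90 times in KO, so that the KO libraries lay on either side of both WT libraries. On the log2 scale this ratio was 2.39 ± 0.0540 in WT and 2.35 ± 0.292 in KO (SD, n = 2 each; exact two-sided permutation p = 1).

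**Figure D2:**
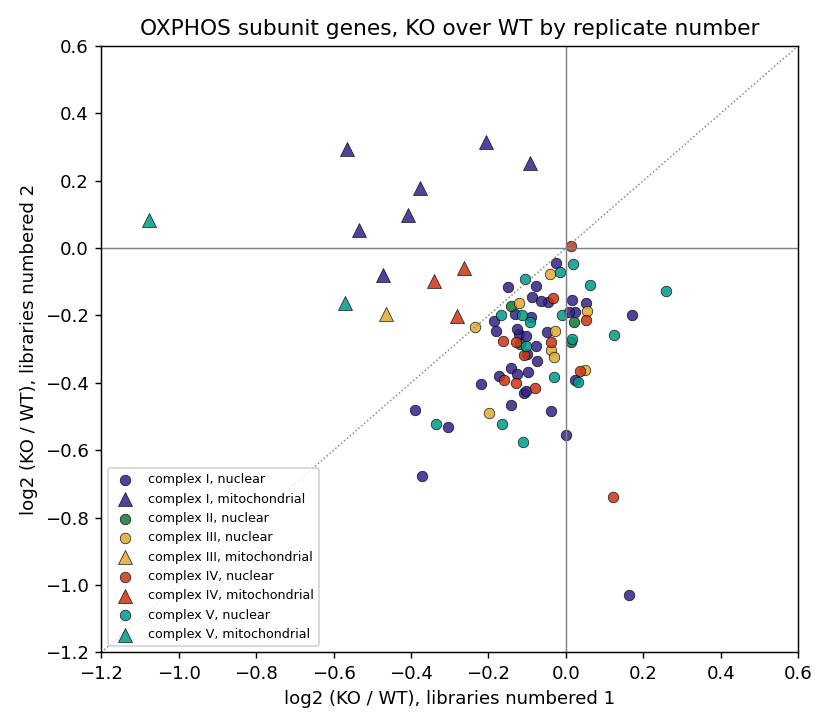
Log2 ratio of KO over WT for each of the 92 tested members between the libraries numbered 1 (x axis) and between those numbered 2 (y axis), coloured by complex, with circles for nuclear and triangles for mitochondrial genes. Nuclear genes lie mostly below the dotted line of equal ratios (medians -0.081 and -0.27) and mitochondrial genes above it (medians -0.41 and 0.053).

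The replicate number was also tied to other measures. Library 2 was above library 1 by a median log2 ratio of 0.37 in WT and 0.17 in KO over the nuclear members. Over the mitochondrial members it was 0.31 and 0.62, and over all tested genes 0.024 and -0.0091. The nuclear values were close to those of short non-member genes that encode proteins (below 1000 bases, 0.34 and 0.18). They were also close to those of the cytosolic ribosome (0.35 and 0.18) and the mitochondrial ribosome (0.30 and 0.19). From 1000 to 1999 bases, nuclear members (0.38 and 0.17) stood above such non-members (0.25 and 0.14). From 2000 to 3999 bases they did so too (0.31 and 0.15, against 0.083 and 0.060). Protein-coding genes with shorter transcripts were relatively higher in the libraries numbered 2 (across genes, Spearman's rho with transcript length -0.46 in WT and -0.37 in KO, n = 12744 genes that are not independent replicates). Reads of Adipoq, a fat cell gene, numbered 1 and 0 in the libraries numbered 1 (WT, then KO) and 70 and 71 in the libraries numbered 2, and those of Lep 0 and 0, then 41 and 36. Of the 8 tested adipocyte markers 7 were higher in library 2 in WT and 6 in KO, while Adrb3 was lower in library 2 in both (217 and 128 reads in WT, 479 and 214 in KO). The part of transcript length and of fat cell RNA in the differences between numbers was not tested.

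Subunit transcripts are short, so the members were set beside other genes of similar transcript length. The 37 tested nuclear members with a longest transcript under 1000 bases had a median of -0.20, against -0.083 for 458 other protein-coding genes of that length. From 1000 to 1999 bases the medians were -0.16 for 26 members and -0.058 for 2081 others, and from 2000 to 3999 bases -0.16 for 12 members and 0.00054 for 5279 others. Genes of the cytosolic ribosome, which are short and abundant too, were on the other side: the median of 84 tested genes was 0.22, 82 were above 0, and 0 were called by edgeR (0 at an unadjusted p under 0.05) or by DESeq2 and limma-voom. The log2 ratio of nuclear subunit counts to cytosolic ribosomal counts was 0.055 and 0.054 in WT replicates 1 and 2, against -0.31 and -0.36 in KO replicates 1 and 2. Both KO libraries were below both WT libraries, by -0.36 in the libraries numbered 1 and -0.42 in the libraries numbered 2, and the mean difference of -0.39 was larger than the spread within either genotype (0.055 ± 0.000436 in WT and -0.34 ± 0.0396 in KO, SD, n = 2 each; exact two-sided permutation p = 0.333, the smallest possible). Against the ribosome inside the mitochondrion, whose 76 tested protein genes had a median of -0.080 with 0 called by any of these tools (1 at an unadjusted p under 0.05 in edgeR), the nuclear subunit counts differed by -0.063.

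**Figure D3:**
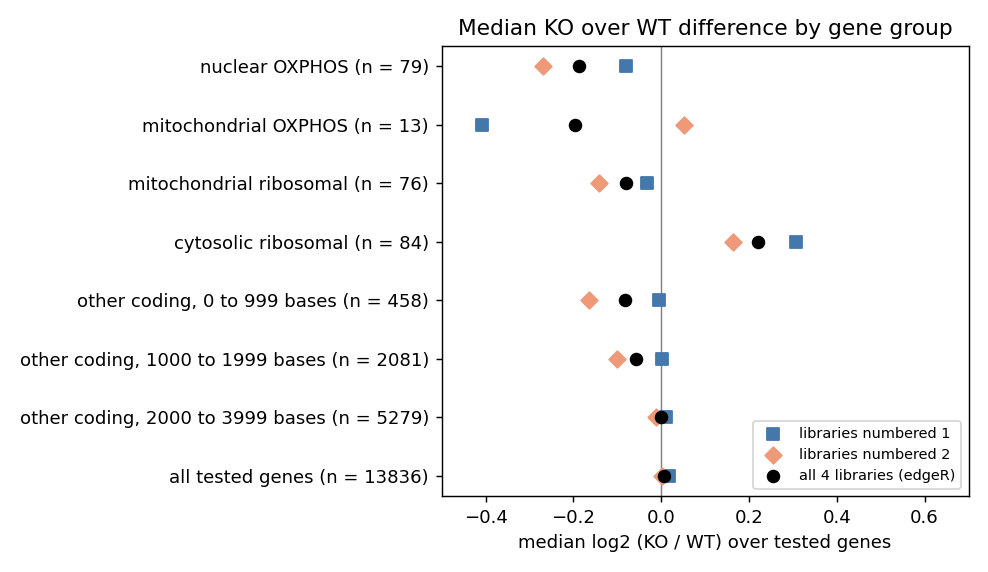
Median log2 ratio of KO over WT (x axis) for groups of tested genes (y axis, n in brackets). Squares are the libraries numbered 1, diamonds those numbered 2, and circles the edgeR fold change over all 4. Nuclear subunit genes (-0.19) lie below other coding genes of each length class shown, and cytosolic ribosomal genes (0.22) lie above 0.

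Complex I, the entry point for NADH, had 37 nuclear members, all tested and all with a log2 fold change below 0 (median -0.20, from -0.63 to -0.031). The -0.63 was that of Ndufa4l2, which had few reads (26 and 68 in the WT libraries, 32 and 34 in those of KO, SE 0.538). Ndufv3, an accessory subunit of the NADH-oxidising module (chr17:31520115-31531331, + strand), was at 92.9 and 89.3 CPM in WT replicates 1 and 2 and at 71.7 and 55.8 CPM in KO replicates 1 and 2. Both KO libraries were the lower ones (log2 fold change -0.51, SE 0.193, edgeR adjusted p = 0.309). Ndufs5, an accessory subunit (chr4:123712710-123718202, - strand), was at 61.1 and 76.8 CPM in WT and at 49.4 and 53.1 CPM in KO, again without overlap (-0.43, SE 0.191, edgeR adjusted p = 0.406). Ndufb2, another accessory subunit, was at 23.7 and 29.9 CPM in WT and at 18.1 and 21.4 CPM in KO (-0.44, edgeR adjusted p = 0.423). In these genes, which had the smallest p of the complex, KO was below WT in both numbers without reaching a call. Levels of different genes were set side by side only per kilobase of the longest transcript, as the mean over the 4 libraries. On that scale Ndufb9, an accessory subunit of the membrane arm, was the highest of the nuclear complex I genes at 362 CPM per kilobase. Its 2 genotypes overlapped, with 233 and 305 CPM in WT and 219 and 264 CPM in KO. Ndufa4, which the symbol rule counts here although its product is known as a subunit of complex IV, followed at 147 CPM per kilobase (164 and 229 CPM in WT, 153 and 177 CPM in KO). Per kilobase of its principal transcript Ndufa4 stood at 296, so its level depends on the length used.

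Complex II, the succinate dehydrogenase that also works in the citric acid cycle, is the one complex with no mitochondrially encoded subunit. All 4 of its genes were tested and all were below 0 (median -0.15, from -0.21 to -0.11), and in none were both KO libraries below both WT libraries. Sdha, the flavoprotein that oxidises succinate, was at 534 and 608 CPM in WT and at 484 and 540 CPM in KO (log2 fold change -0.16, SE 0.174, edgeR adjusted p = 0.797). Sdhb, the iron-sulfur subunit, was at 265 and 348 CPM in WT and at 245 and 286 CPM in KO (-0.21, SE 0.200, edgeR adjusted p = 0.754). In both genes the WT and KO libraries overlapped. The membrane anchor Sdhc had a log2 ratio of KO over WT of 0.012 in the libraries numbered 1 and of -0.28 in the libraries numbered 2.

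Complex III, which hands electrons from ubiquinone to cytochrome c, had 9 nuclear members, all below 0 (median -0.17, from -0.36 to -0.061). Uqcr10, a small accessory subunit, was at 83.3 and 117 CPM in WT and at 72.7 and 83.2 CPM in KO (log2 fold change -0.36, SE 0.214, edgeR adjusted p = 0.556). KO replicate 2 and WT replicate 1 were nearly level there. The accessory subunits with the highest level per kilobase were Uqcr11 (269 CPM per kilobase), whose promoter is printed above, and Uqcrh (215 CPM per kilobase). Uqcr11 was at 145 and 201 CPM in WT and at 141 and 163 CPM in KO, and Uqcrh at 152 and 199 CPM in WT and at 148 and 189 CPM in KO, so that each overlapped between genotypes. Without WT replicate 2 their log2 fold changes were 0.062 and 0.14.

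Complex IV, cytochrome c oxidase, reduces oxygen to water, and its nuclear subunits include pairs of genes used by different tissues. Of 18 nuclear members 12 were tested, 11 of them below 0 (median -0.22, from -0.38 to 0.0095). Cox6a1, the form of subunit VIa used outside heart and muscle (chr5:115345642-115348981, - strand, promoter printed above), was at 212 and 259 CPM in WT and at 190 and 197 CPM in KO, without overlap (log2 fold change -0.28, SE 0.180, edgeR adjusted p = 0.597). Cox4i1, the common form of subunit IV (chr8:120668222-120674207, + strand), was the highest nuclear gene of the complex at 562 CPM per kilobase of longest transcript, but per kilobase of exons Cox6a1 (306) was above it (277). Its KO libraries, at 401 and 409 CPM, lay just under WT replicate 1 at 413 CPM and well under WT replicate 2 at 496 CPM (-0.17, SE 0.176, edgeR adjusted p = 0.788).

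The tissue forms of complex IV subunits were nearly silent in both genotypes. Cox6a2, the heart and muscle form of subunit VIa, and Cox7b2 and Cox8c had no read in any library, which allows up to 0.0759 CPM in a library (3 counts). Cox8b, the muscle and brown fat form of subunit VIII, had 2 and 4 reads in the WT libraries and 11 and 7 in those of KO, while the common form Cox8a had between 5973 and 7586. Cox4i2 had 3, 2, 1 and 1 reads and Cox6b2 had 2, 1, 1 and 5 (WT replicates 1 and 2, then KO replicates 1 and 2), counts close to that limit. These 6 genes were not tested. The heart and muscle form Cox7a1 passed the filter with 31 and 52 reads in the WT libraries and 37 and 32 in those of KO, at 1.91 CPM per kilobase against 164 for its counterpart Cox7a2. Cox7a2 itself was at 95.4 and 127 CPM in WT and at 98.9 and 110 CPM in KO. Cox7a2l, which helps join complexes III and IV into supercomplexes, stood level between genotypes, with 79.4 and 99.9 CPM in WT and 80.1 and 100.4 CPM in KO (log2 fold change 0.0095, SE 0.205).

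Complex V makes ATP in its soluble head, driven by a ring of c subunits in the membrane. Its 17 nuclear members were all tested, 16 of them below 0 (median -0.16, from -0.44 to 0.085). Atp5b and Atp5a1, the beta and alpha subunits of the head, had the highest levels among the nuclear genes of the complex at 687 and 449 CPM per kilobase. Atp5b, the highest of all 85 nuclear members, was at 1205 and 1455 CPM in WT and at 1260 and 1347 CPM in KO, so both KO libraries lay between the WT libraries (log2 fold change -0.029, SE 0.180, edgeR adjusted p = 0.978, and 0.012 with the length trend offset). Atp5k, a small subunit of the membrane part (chr5:108433244-108434448, - strand, promoter printed above), was at 93.9 and 124 CPM in WT and at 74.4 and 86.2 CPM in KO. The KO libraries were the lower ones there (-0.44, SE 0.203, edgeR adjusted p = 0.424), and so they were for Atp5e, the epsilon subunit, with 93.1 and 106 CPM in WT and 86.2 and 71.2 CPM in KO (-0.34, SE 0.188, edgeR adjusted p = 0.522).

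The c ring is encoded by 3 genes whose proteins differ in their import sequences and are identical once mature. Atp5g3 (chr2:73908447-73911326, - strand) was at 284 and 339 CPM in WT and at 254 and 236 CPM in KO, with no overlap (log2 fold change -0.35, SE 0.178, edgeR adjusted p = 0.482). Atp5g1 was at 80.6 and 74.5 CPM in WT and at 96.4 and 68.1 CPM in KO (0.085, SE 0.213), and Atp5g2 at 33.2 and 38.3 CPM in WT and at 33.6 and 37.0 CPM in KO (-0.017, SE 0.183, and 0.0013 when scaled by library size alone). The latter pair overlapped between genotypes. Per kilobase of the longest transcript Atp5g3 stood at 323, Atp5g2 at 47.2 and Atp5g1 at 16.9 CPM per kilobase, but Atp5g1 has a long annotated transcript, so its place in that order is uncertain. The same holds for Atp5l, Ndufb2 and Ndufb7. Over the 79 tested nuclear members the median level was 107 CPM per kilobase of longest transcript. By other lengths the median of nuclear members was 140.4 per kilobase of the principal transcript and 70.6 per kilobase of exons.

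The 13 mitochondrial genes were far more abundant. Their median level was 3893 CPM per kilobase, and 12 of the 13 were above the highest nuclear member. In each of the 4 libraries mt-Co1, the catalytic subunit of complex IV, was the highest (12732 and 15756 CPM per kilobase in WT replicates 1 and 2, 10609 and 15126 in KO) and mt-Nd4l the lowest (45.02 and 23.0 in WT, 33.9 and 24.7 in KO). Next to mt-Co1 came mt-Co3 (8515 and 11342 in WT, 6724 and 10603 in KO) and mt-Atp6 (8722 and 11355 in WT, 5873 and 10146 in KO), whose order differed between libraries. In KO replicate 1 mt-Co2 (6124) was above mt-Atp6, so these genes cannot be ordered. Nuclear copies of mitochondrial sequence and the overlaps shown above make single levels uncertain, since how the counting treated reads with several matches is not given in the sources used here.

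**Figure D4:**
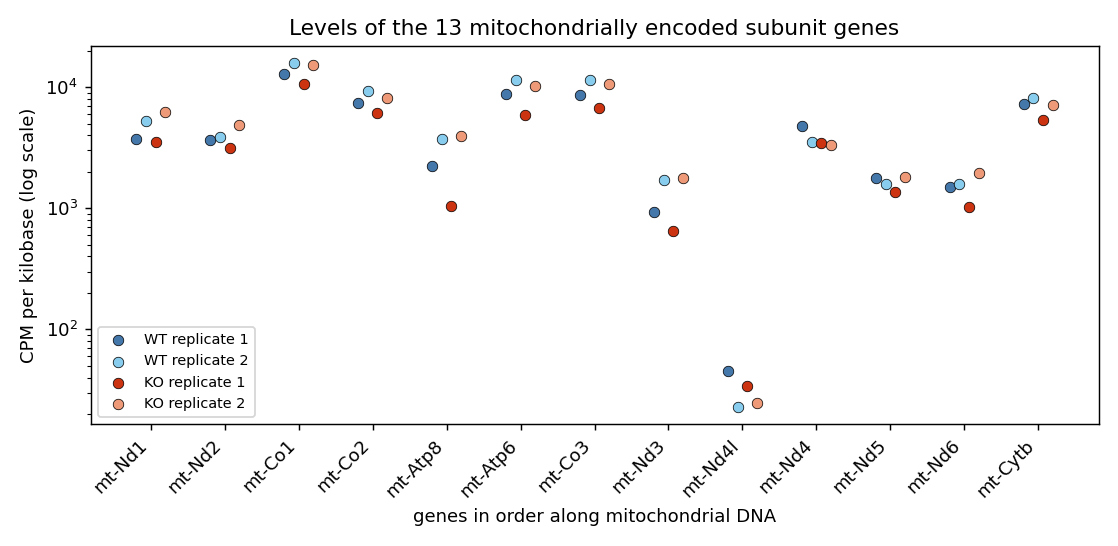
Level of the 13 mitochondrially encoded subunit genes in CPM per kilobase (y axis, log scale), in their order along mitochondrial DNA (x axis), with 1 point per library. KO replicate 1 is the lowest library for 11 of the genes, and mt-Nd4 and mt-Nd4l are lower in the libraries numbered 2 than in WT replicate 1.

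Among the mitochondrial genes KO replicate 1 stood apart from the other libraries. For mt-Atp8, a complex V membrane subunit (sequence above), WT replicates 1 and 2 held 19132 and 28678 reads, while KO replicates 1 and 2 held 9878 and 31953, so KO held both the lowest and the highest value (log2 fold change -0.25, SE 0.559, edgeR adjusted p = 0.924). Without KO replicate 2 it was -1.50 and called (edgeR adjusted p = 7.73e-05), and without KO replicate 1 it was 0.41. For mt-Nd3, a complex I subunit, the reads were 13829 and 22834 in WT and 10411 and 24906 in KO, with -0.13 over all libraries, -1.04 without KO replicate 2 (called, edgeR adjusted p = 0.0187) and 0.43 without KO replicate 1. Without KO replicate 2 no other member was called, in a fit that called 3.56% of 14414 genes.

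The 7 mitochondrial subunits of complex I form much of its proton-pumping arm. Between the libraries numbered 1 KO was below WT for all 7, by a median log2 ratio of -0.41, and between those numbered 2 for 1 of them, mt-Nd4, with a median of 0.18. mt-Nd1 was at 3572 and 5046 CPM in WT and at 3350 and 6011 CPM in KO, and mt-Nd2 was likewise lowest in KO replicate 1 and highest in KO replicate 2. mt-Nd4 took 10.2% and 6.37% of the reads of all mitochondrial members in WT replicates 1 and 2, against 9.32% and 6.19% in KO. Its share, and that of mt-Nd4l, was lower in the libraries numbered 2 of both genotypes, while that of mt-Nd3 was the higher in the libraries numbered 2 (0.506% and 0.793% in WT, 0.444% and 0.846% in KO). Across the 13 genes the log2 ratio of library 2 over library 1 in WT and in KO had Pearson's r of 0.88 (Spearman's rho 0.79), a description over genes that share libraries.

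Only in mt-Cytb and mt-Nd4 were both KO libraries below both WT libraries. These are 2 of the 13 mitochondrial genes (15.4%), no more than the 20.4% of all tested genes. mt-Cytb, the complex III subunit that binds ubiquinone, was at 8365 and 9294 CPM in WT and at 6060 and 8110 CPM in KO (log2 fold change -0.32, SE 0.202, edgeR adjusted p = 0.596). mt-Nd4 was at 6563 and 4822 CPM in WT and at 4728 and 4558 CPM in KO (-0.29, SE 0.201, edgeR adjusted p = 0.628). The 3 complex IV genes, mt-Co1, mt-Co2 and mt-Co3, were below WT in both numbers (medians -0.28 and -0.097), with log2 fold changes over all libraries of -0.15, -0.24 and -0.20.

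Genes that build, feed and regulate the respiratory chain also gave no call in edgeR with all 4 libraries, the filter and genotype as the only term. In 11 lists, which cover assembly factors of the 5 complexes, electron carriers, ubiquinone synthesis, the citric acid cycle, carriers of nucleotides and phosphate, upkeep of mitochondrial DNA and regulators of biogenesis, edgeR called 0 of 136 tested entries, against 1.91% of all tested genes, and 10 entries (7.35%) had an unadjusted p under 0.05, against 13%. Limma-voom also called 0, and DESeq2 called 2 (1.47%, against 4.15% of all genes), Coq8a and Hsd17b10. The medians were -0.10 for complex I assembly factors (15 tested), -0.15 for those of complex IV (22 tested), -0.19 for ubiquinone synthesis (13 tested) and -0.16 for the citric acid cycle (14 tested). The medians of the 11 lists ran from -0.28 (complex II assembly factors, 4 tested) to 0.26 (biogenesis regulators), and that of the longest list, upkeep of mitochondrial DNA, was 0.032, with 16 of 29 tested genes above 0. Coq8a, a kinase-like protein needed to make ubiquinone, was at 16298 and 12574 reads in the WT libraries and 10988 and 7675 in those of KO, both KO libraries being lower (log2 fold change -0.73, SE 0.191, edgeR adjusted p = 0.125). Its edgeR adjusted p was 0.0157 when low counts were kept and 0.0409 with the length trend offset, and up to 0.397 without KO replicate 2. Cs, the citrate synthase that opens the citric acid cycle, had 173 ± 13.8 CPM in WT against 129 ± 2.76 CPM in KO (SD, n = 2 each; -0.43, SE 0.170, edgeR adjusted p = 0.339). Acad9, an acyl-CoA dehydrogenase that also assembles complex I, had 59.1 ± 1.30 CPM in WT against 43.1 ± 1.30 CPM in KO (SD, n = 2 each; -0.46, SE 0.171, edgeR adjusted p = 0.309).

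The regulators did not move as 1 group. Of 11 tested biogenesis regulators 8 were above 0 (median 0.26). Nrf1, the factor whose motif was counted in the promoters above, was at 350 and 280 reads in the WT libraries and 531 and 514 in those of KO, both KO libraries being higher (log2 fold change 0.64, SE 0.197, edgeR adjusted p = 0.201). Ppargc1a, a coactivator of mitochondrial biogenesis, was at 352 and 363 reads in the WT libraries and 230 and 242 in those of KO, both KO libraries being lower (-0.69, SE 0.222, edgeR adjusted p = 0.219). Hsd17b10, which is also a subunit of mitochondrial RNase P, the enzyme that cuts transcripts of mitochondrial DNA at their tRNAs, was at 9450 and 11944 reads in the WT libraries and 5963 and 6394 in those of KO (-0.89, SE 0.223, edgeR adjusted p = 0.112). Its call depended on the setting: the edgeR adjusted p was 0.00117 with no filter, 0.0354 with the length trend offset, 0.00332 without WT replicate 1 and 0.0205 without KO replicate 2, but 0.282 without WT replicate 2 and 0.250 without KO replicate 1. Lrpprc, which stabilises mitochondrial messenger RNA, was at 111 ± 11.4 CPM in WT against 152 ± 12.7 CPM in KO (SD, n = 2 each; 0.45, SE 0.179, edgeR adjusted p = 0.342). In each of these 4 genes, named for the smallest p of their lists, the libraries did not overlap between genotypes. Both KO libraries lay below both WT libraries in 20.4% of all tested genes and above both in 21.6%. They lay below in 3 and above in 3 of the 11 tested regulators. Of the 29 tested genes for upkeep of mitochondrial DNA they lay below in 4 and above in 6.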

How the data were processed

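Liver RNA of 2 WT and 2 Fto KO libraries was measured by RNA-seq of polyadenylated RNA (TruSeq v2, which does not mark the strand, read from both ends at 101 bases), per the labels' protocols. The authors deposited whole-number read counts per Ensembl gene, made with TopHat2 2.1.1 on mm10 and HTSeq 0.6.0, per the submitters' processing notes. Neither their annotation release nor HTSeq's settings were stated in the sources used here. GENCODE M21 gave 35533 of 37315 identifiers a symbol, and the other 1782 held between 0.143% and 0.194% of a library's counts. All values here were computed from the deposited counts.

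Genes were filtered with filterByExpr (minimum count 10, minimum total 15; 13836 left), scaled with TMM and tested with edgeR 4.0.16 (quasi-likelihood F test, robust, genotype as the only term) in R 4.3.3. P-values were adjusted by Benjamini-Hochberg over all tested genes and called under 0.05. SE is the size of the log2 fold change over the square root of F. Ratios between libraries of 1 number used a prior count of 2, and length classes used the longest annotated transcript. Sums of marker CPM and shares of counts used library totals without TMM, while CPM of single genes used TMM. The procedure was tested on simulated data. At these depths 1 read was 0.0224 to 0.0253 CPM. DESeq2 1.42.0, limma-voom (limma 3.58.1), other scalings and filters, length offsets (loess span 0.5), a replicate block and leaving out each library were tried. Levels per kilobase of the APPRIS principal transcript were added after the data were seen. Named genes were the 13 mitochondrial members, per complex the 3 nuclear members of smallest p and the 2 of highest level per kilobase, the tissue forms, and per list the 2 of smallest p, of which the text gives some. Members, lists and tests were chosen with earlier results of these data known.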

Additional observations from a re-analysis of the deposited data

How the results depend on the processing

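The count of 264 called genes became 829 with no filter on low counts, 574 with DESeq2, 493 with a length trend offset, and 460 to 633 when 1 library was left out. The count of 0 called members held under each scaling, filter and tool run, and ran from 0 to 2 without 1 library. With a replicate block 2729 genes were called and 14 members, all lower in KO (15.2% of 92 members, against 9.58% of all genes called lower), 10 nuclear (Ndufv3, Ndufs5, Ndufb2, Ndufb8, Ndufs4, Uqcr10, Cox6a1, Atp5k, Atp5g3 and Atp5e) and 4 mitochondrial (mt-Cytb, mt-Atp6, mt-Nd4 and mt-Co2). Of the 22 genes named from the pathway lists 15 were called with the block, against 19.7% of all genes. They were named for the smallest p of each list in these same counts, so the 15 do not describe the lists as a whole. Coq8a, Hsd17b10, Nrf1 (edgeR adjusted p = 0.00390), Ppargc1a (0.00522) and Lrpprc (0.000581) were among the 15. With the block and a length trend offset 2884 genes were called and 21 members, all of these members lower (22.8%, against 10.9%). The labels do not pair the numbers. The difference between replicates 1 and 2 correlated across genes between WT and KO (Pearson's r 0.43), which is a hint from the data and not from the design.

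Scaling by DESeq2's size factors, by library size or without mitochondrial genes kept all tested members on their side of 0 except Atp5g2 (0.0013 with library size alone). Atp5b was 0.012 with the length trend offset and 0.013 with that and the block. The median level of nuclear members was 70.6 CPM per kilobase of exons and 140.4 per kilobase of principal transcript.

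Leaving out 1 library moved the nuclear median log2 fold change between -0.37 and 0.019, the mitochondrial one between -0.46 and 0.097, and the nuclear one by complex I from -0.37 to 0.0097, II from -0.30 to 0.016, III from -0.39 to 0.034, IV from -0.36 to -0.0038 and V from -0.36 to 0.022. Without WT replicate 2, 48 of the 92 tested members changed sign, without KO replicate 1 26, without KO replicate 2 5 and without WT replicate 1 3. The log2 fold changes that crossed 0 ranged, among mitochondrial genes, as mt-Nd1 -0.37 to 0.48, mt-Nd2 -0.26 to 0.37, mt-Co1 -0.43 to 0.089, mt-Atp8 -1.50 to 0.41, mt-Atp6 -0.78 to 0.018, mt-Co3 -0.57 to 0.10, mt-Nd3 -1.04 to 0.43, mt-Nd4l -0.63 to 0.35, mt-Nd5 -0.31 to 0.10, mt-Nd6 -0.62 to 0.34. Among nuclear subunits and the assembly factor Sdhaf4 they ranged as Ndufb9 -0.34 to 0.045, Ndufa4 -0.47 to 0.0017, Sdhc -0.32 to 0.042, Uqcrq -0.42 to 0.067, Uqcr11 -0.40 to 0.062, Uqcrh -0.25 to 0.14, Atp5b -0.16 to 0.10, Cox7a1 -0.77 to 0.12, Cox7a2 -0.29 to 0.12, Cox7a2l -0.17 to 0.18, Cox7b -0.50 to 0.13, Atp5g1 -0.19 to 0.31, Atp5g2 -0.12 to 0.082, Ndufa4l2 -1.21 to 0.32, Sdhaf4 -0.56 to 0.015. The cause of these shifts was not tested. With a single library on a side, its spread was assumed to equal that of the other genotype. With 2 libraries per genotype a permutation of libraries cannot give a p under 0.333. The 6 untested complex IV genes had too few reads for the filter, and the tested members with few reads had wide errors (Ndufa4l2 SE 0.538, Cox7a1 SE 0.437).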
